A study of Rattus norvegicus with 8 samples.

Results

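The effect of the R100E substitution in a protein that also carries P61S was examined by setting 3 arrays of rat dorsal root ganglion cultures given P61S/R100E against 3 arrays of cultures given P61S. These 6 arrays were taken by their titles from the 8 arrays of the study, and the remaining 2 came from cultures given the wild-type form. The cells were dissociated from ganglia of newborn Wistar rats aged 0 to 5 days, males and females pooled, and plated at 50000 cells per well in serum-free medium. That medium contained 5-fluoro-2'-deoxyuridine and uridine, which limit dividing cells, in all 3 groups. After 2 to 3 days in vitro each culture received a human protein at 100 ng/ml, as the P61S mutant, the P61S/R100E double mutant or the wild type, and RNA was taken after 5 days. No untreated culture was analysed here, so each value compares forms of the protein with each other. The labels do not state whether replicates were separate cultures or animals, so a p-value here measures only the spread between these samples, which may be technical. Polyadenylated RNA of the whole dish, neurons and other cells alike, was read on one-colour arrays, and fewer cells of a type and less RNA per cell cannot be told apart in such samples.

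Sensory neurons of the dorsal root ganglia carry touch, temperature, itch and pain signals from the body to the spinal cord. Many small-diameter neurons, the nociceptors, store peptides such as substance P, the calcitonin gene-related peptides and galanin, and open channels such as Trpv1 and Trpa1 when stimulated. Vip and Gal are low in intact sensory neurons of adult rats and are known to rise after their axons are cut, whereas trophic support holds up other peptides and channels of nociceptors.

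Each signal is the log2 intensity minus the log2 75th percentile of its array, so 0 is the level of that percentile and a difference of 1 is 2-fold. The 75th percentile signals ran from 3267 to 5269 and 78.7% to 88.8% of noncontrol spots were well above background. The cultures carried the markers of their labelled tissue: Prph, the peripherin gene of small sensory neurons, stood at 5.45 ± 0.14 (SD, n = 3) in the double mutant group and 5.47 ± 0.06 (SD, n = 3) in the P61S group. Sox10, a marker of glia, stood at 3.67 ± 0.08 and 3.68 ± 0.07, and Dcn, a fibroblast gene, at 3.90 ± 0.07 in both groups (SD, n = 3 each). Wild type replicate 2 stood apart from the other arrays (correlations of 0.983 to 0.989 over probes). It entered the comparison through the shared estimate of the spread and, with the other wild type array, through the choice of probes tested.

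Across all genes, P61S/R100E and P61S cultures differed little, and no single gene passed the test over all probes. The genes that stood farthest apart for their spread were Vip, the vasoactive intestinal peptide gene, 3.21-fold higher with P61S/R100E, and Lrat, the enzyme that esterifies retinol, 2.23-fold lower. A probe was tested if all arrays of some group read it well above background. Of the 23585 such probes, limma called 0 (0%) at an adjusted p under 0.05. At an unadjusted p under 0.05 it counted 946 probes (4.01%), 457 higher (1.94%) and 489 lower (2.07%). The smallest adjusted p was 0.0678, for Lrat. The limma fit also called 0 without wild type replicate 2, with 1483 probes at an unadjusted p under 0.05.

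Represented by its brightest probe, the median gene of 12148 differed by -0.01 on the log2 scale, and 5% to 95% of genes lay between -0.33 and 0.25. The median standard error of a gene's difference was 0.12. With the genes cut by signal into 4 equal groups, it was 0.22 in the dimmest and 0.10 in the brightest group. At an unadjusted p under 0.05 there were 568 genes (4.68%), 288 higher (2.37%) and 280 lower (2.30%). The groups did not overlap in 1906 genes (15.7%): the 3 arrays of P61S/R100E lay wholly above those of P61S in 876 (7.21%) and wholly below in 1030 (8.48%). Of 2343 further probes of 2146 genes, 62.5% had the same sign as the gene's brightest probe. For genes whose brightest probe had an unadjusted p under 0.05 the share was 83.8% (93 of 111 probes). These shares are descriptions, since probes of a gene were read on the same arrays.

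**Figure D1:**
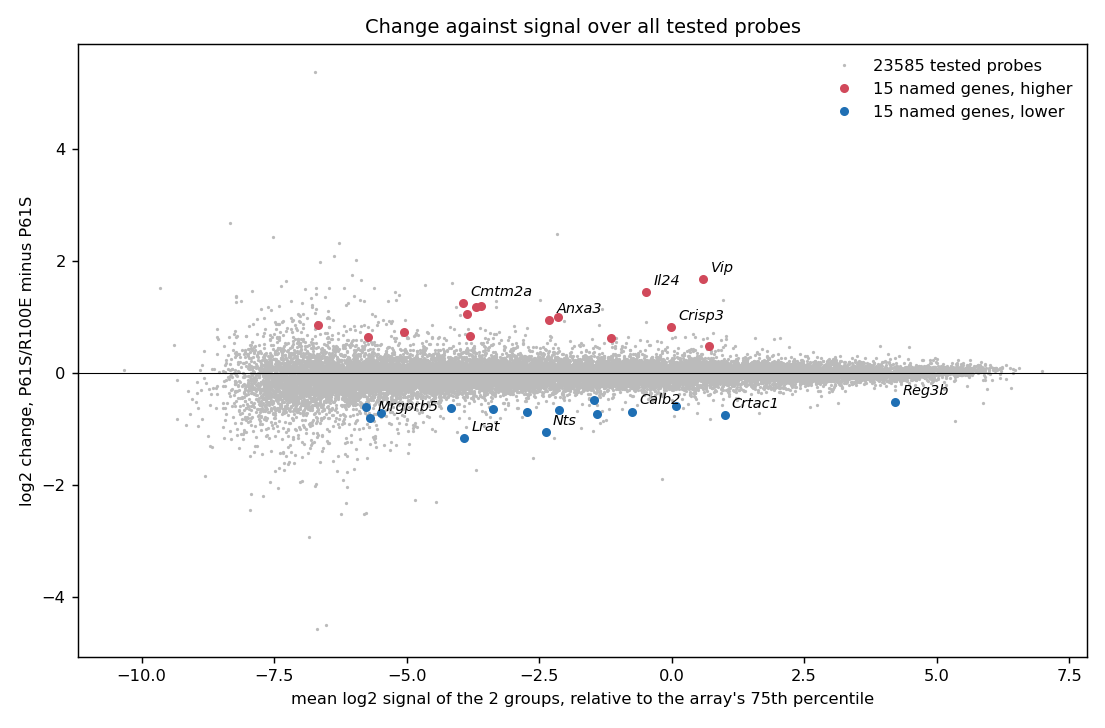
Log2 change of P61S/R100E minus P61S (vertical axis) against the mean signal of both groups on the scale just described (horizontal axis), 1 grey point for each of 23585 tested probes, with the 15 named genes higher in red and the 15 lower in blue. The grey cloud is widest at low signal, and Vip at 1.68 and Il24 at 1.45 lie above it at middle signals.

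The genes described first are the 15 in each direction with the smallest p among genes whose 3 and 3 arrays did not overlap. That separation was required by the rule and supports nothing. The 15 higher genes differed by 0.48 to 1.68 on the log2 scale (1.39-fold to 3.21-fold) with adjusted p-values from 0.152 to 0.336 in limma, and the 15 lower genes by 1.40-fold to 2.23-fold with adjusted p-values from 0.0678 to 0.336. None of the 30 therefore passed the test.

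Vip read 1.46, 1.54 and 1.32 with P61S/R100E and -0.38, 0.10 and -0.45 with P61S, and -0.31 and -0.24 with the wild type. The P61S/R100E arrays were thus the only high ones, and P61S replicate 2 was the nearest of the others. The difference was 1.68 (SE 0.16, 95% interval 1.31 to 2.05, adjusted p = 0.152 in limma). Il24, an interleukin-10-like cytokine, read 0.12, 0.33 and 0.26 with P61S/R100E and -1.40, -0.76 and -1.45 with P61S, a difference of 1.45 (SE 0.19). Again P61S replicate 2 was the highest P61S array, and the wild type arrays at -1.46 and -1.37 lay with the other P61S arrays.

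Anxa3, an annexin that binds phospholipid in the presence of calcium, read -1.80, -1.80 and -1.92 with P61S/R100E against -2.79, -2.67 and -2.88 with P61S. The spread within each group was narrow, and the difference was 0.94 (SE 0.09, adjusted p = 0.152 in limma). Pde6b, which encodes a catalytic subunit of the rod phosphodiesterase, read -3.14, -2.98 and -3.16 against -4.36, -4.00 and -4.46, a difference of 1.18 (SE 0.13). Crisp3, a secreted cysteine-rich protein, read 0.46, 0.38 and 0.38 against -0.50, -0.24 and -0.50, a difference of 0.82 (SE 0.10). In both genes the highest P61S array was again replicate 2, and it stayed below every P61S/R100E array.

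The other higher genes came from several kinds of protein. Cmtm2a, of the chemokine-like MARVEL family, differed by 1.25 (SE 0.17), and a second probe gave 1.06. The orphan receptor gene Gprc5a differed by 1.20 (SE 0.18), and Cckbr, the receptor for gastrin and cholecystokinin, by 1.04 (SE 0.15). The second Cckbr probe, much dimmer, gave 0.35 and its arrays overlapped. Kcnq3, a subunit of the M-type potassium channel, differed by 0.99 (SE 0.15), with 0.64 (SE 0.12) on a second probe. Elf5, an ETS transcription factor of epithelia, differed by 0.86 (SE 0.12), the intestinal cadherin gene Cdh17 by 0.73 (SE 0.11) and the basal keratin gene Krt14 by 0.66 (SE 0.09). Stat4, a signal transducer of cytokine receptors, differed by 0.64 (SE 0.10), and Mmp16, a membrane-bound matrix metalloproteinase, by 0.62 (SE 0.09). Thbd, the thrombomodulin gene, differed by 0.48 (SE 0.08), and its second, dimmer probe gave 0.30.

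Lrat read -4.58, -4.48 and -4.41 with P61S/R100E, -3.38, -3.24 and -3.38 with P61S and -3.13 and -3.17 with the wild type. The 3 P61S/R100E arrays lay together more than 2-fold below all 5 others. The difference was -1.16 (SE 0.08, 95% interval -1.36 to -0.96, adjusted p = 0.0678 in limma). A second Lrat probe gave -1.41 with a wide SE of 0.72 and was well above background on 0 of 3 P61S/R100E arrays. Nts, the neurotensin gene, read -2.910, -2.726 and -3.078 against -2.003, -1.573 and -1.980, a difference of -1.05 (SE 0.15). Here P61S replicate 2 was the array farthest from P61S/R100E.

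Mrgprb5, a Mas-related receptor of the family that senses itch-inducing ligands, read -6.02, -6.23 and -6.04 with P61S/R100E and -5.14, -5.36 and -5.37 with P61S, a difference of -0.81 (SE 0.10). These are among the dimmest signals named, and the difference was -0.37 (SE 0.38) with outlier spots kept and -0.37 (SE 0.37) with the deposited values, short of the unadjusted 0.05 level in both. Calb2, which encodes calretinin, read -1.191, -1.066 and -1.004 against -0.3705, -0.4258 and -0.3959, a difference of -0.69 (SE 0.08). Camk4, a calmodulin-dependent kinase of neurons, differed by -0.73 (SE 0.10), and Crtac1, a secreted extracellular matrix protein, by -0.75 (SE 0.12). F2rl1, the protease-activated receptor PAR2, read -3.22, -2.93 and -3.11 against -2.41, -2.36 and -2.40, a difference of -0.69 (SE 0.09). In both Calb2 and F2rl1 the P61S arrays lay closely together and apart from the more widely spread P61S/R100E arrays.

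Among the remaining lower genes, Cldn3, a tight junction claudin, differed by -0.64 (SE 0.08), Marchf11, a ubiquitin ligase, by -0.66 (SE 0.10) and Hsd17b1, which makes estradiol, by -0.49 (SE 0.07). Il7r, the interleukin-7 receptor, differed by -0.62 (SE 0.09), with -0.55 on a second probe, and Sting1, a sensor of cyclic dinucleotides, by -0.58 (SE 0.10). Reg3b, a secreted lectin that sensory neurons make after injury, was the brightest gene of the 30, at 3.99, 3.86 and 4.03 against 4.41, 4.54 and 4.47, a difference of -0.52 (SE 0.09). Stfa2l1, a relative of the stefin protease inhibitors, differed by -0.72 (SE 0.10), and Oas2, an antiviral 2'-5'-oligoadenylate synthetase, by -0.61 (SE 0.09).

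The wild type arrays, which shared the P61S/R100E and P61S arrays' slide, are given for level only. For Stfa2l1 the wild type read -5.79 and -5.74, where P61S/R100E read -5.80, -6.02 and -5.72 and P61S -5.03, -5.16 and -5.20. For Oas2 the wild type read -6.04 and -6.02, where P61S/R100E read -5.91, -6.10 and -6.19 and P61S -5.43, -5.43 and -5.50. In these genes the P61S arrays were the ones that stood apart, whereas for Vip, Il24, Anxa3, Lrat, Calb2 and F2rl1 the P61S/R100E arrays did.

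**Figure D2:**
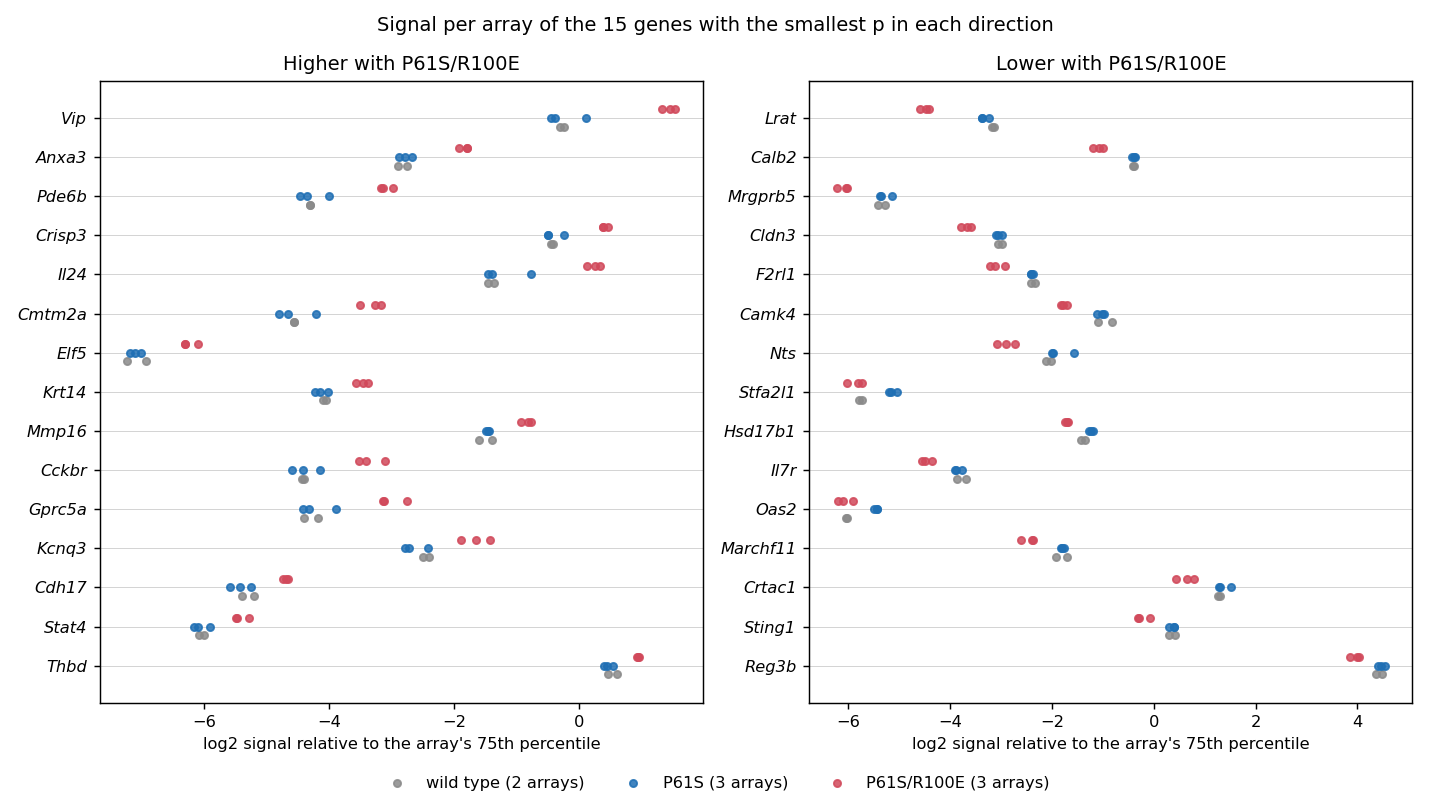
Log2 signal on each array, with its 75th percentile at 0 (horizontal axis), for the 15 higher (left) and 15 lower (right) genes, 1 point per array, with P61S/R100E in red, P61S in blue and wild type in grey. The grey points lie beside the blue ones for most genes and beside the red ones for Stfa2l1 and Oas2.

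Neuropeptide genes lay on both sides. Of 26 tested members, 3 were higher and 5 lower at an unadjusted p under 0.05, and 0 passed the adjusted threshold, where 2.37% of all genes are higher and 2.30% lower at the first level. The median of the list was -0.07, beside -0.01 over all genes. Besides Vip, the higher members were Ucn, the urocortin gene, by 0.58 (SE 0.14), and Gal, the galanin gene, by 0.46 (SE 0.14). Gal read 4.76, 4.66 and 4.72 with P61S/R100E against 4.12, 4.52 and 4.12 with P61S, so replicate 2 of P61S came close to the lowest P61S/R100E array. A second Gal probe gave 0.49.

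The lower peptides, besides Nts, were Nppb, a natriuretic peptide that serves as a transmitter of itch, at -5.49, -5.66 and -5.27 against -4.70, -4.87 and -4.58, a difference of -0.76 (SE 0.14). Adcyap1, the gene of the peptide PACAP, read 1.76, 1.95 and 1.93 against 2.22, 2.22 and 2.21, a difference of -0.34 (SE 0.08). Both genes separated the groups without overlap. The neurotrophin gene Bdnf differed by -0.29 (SE 0.08) and Calcb, the beta form of calcitonin gene-related peptide, by -0.27 (SE 0.07). The abundant messages Calca and Tac1 showed smaller differences on their brightest probes, with intervals that held 0. Calca, the alpha form of calcitonin gene-related peptide, differed by -0.13 (95% interval -0.46 to 0.20) and Tac1, the substance P precursor, by -0.07 (-0.32 to 0.18). A second, much dimmer Calca probe gave -0.42 (95% interval -0.80 to -0.03) and a second Tac1 probe -0.20 (-0.42 to 0.01). The arrays of both second probes did not overlap.

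Vip, Nts and Pde6b are shown with the 250 bases upstream of their RefSeq start, since the first 2 had the largest peptide differences passing that level, in opposite directions, and Pde6b is the only higher gene of the 30 with a motif match. The sequences are from RefSeq on GRCr8, not the rn4 build of the array design, and read 5′ to 3′ on the strand of the gene. They lie at chr1:44470230-44470479 (plus strand) for Vip, chr7:39460889-39461138 (minus strand) for Nts and chr14:1511436-1511685 (minus strand) for Pde6b. Capitals mark matches, on either strand, of the CRE TGACGTCA or of the AP-1 site TGANTCA.
Vip: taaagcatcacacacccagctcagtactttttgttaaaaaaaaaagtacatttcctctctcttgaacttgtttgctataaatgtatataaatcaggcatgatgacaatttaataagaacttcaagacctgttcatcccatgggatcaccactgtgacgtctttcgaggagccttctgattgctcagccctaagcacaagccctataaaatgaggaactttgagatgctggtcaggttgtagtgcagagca
Nts: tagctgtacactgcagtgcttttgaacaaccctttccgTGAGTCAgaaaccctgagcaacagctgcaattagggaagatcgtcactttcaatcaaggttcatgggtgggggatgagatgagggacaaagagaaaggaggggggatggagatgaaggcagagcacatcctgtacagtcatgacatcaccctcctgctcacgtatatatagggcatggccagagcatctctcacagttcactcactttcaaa
Pde6b: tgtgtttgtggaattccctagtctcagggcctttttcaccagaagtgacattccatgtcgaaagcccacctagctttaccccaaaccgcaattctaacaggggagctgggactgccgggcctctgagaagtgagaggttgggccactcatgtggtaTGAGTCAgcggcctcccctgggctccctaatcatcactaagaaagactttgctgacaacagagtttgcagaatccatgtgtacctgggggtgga
With the first transcribed base at 0, the match begins at -212 in Nts and at -94 in Pde6b. Vip holds no exact match of either motif in this window. Near matches of the CRE were not counted, such as tgacgtc in Vip and tgacatca in Nts. Of the 30 genes, 19 had a window in the RefSeq table, taken as 300 bases that reach 50 bases past the start. An AP-1 match was in 1 of 8 windows of higher genes and 3 of 11 of lower genes, a CRE in 0 of either. Over all 33469 windows 7.33% held an AP-1 match and 1.83% a CRE, and over the 10377 windows of tested genes 5.66% and 3.01%. A match is only a description of the letters.

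Of 24 tested receptors of nociceptors and itch neurons 1 was higher and 6 lower at an unadjusted p under 0.05, and 2 lay wholly above and 9 wholly below, as 7.21% and 8.48% of all genes do. The median of the list was -0.16 against -0.01 over all genes. The 0.05 level is reached by 2.37% of all genes upward and 2.30% downward. Cckbr was the higher member. Besides Mrgprb5 and F2rl1, the lower ones were Mrgprx3, a Mas-related receptor, by -0.56 (SE 0.10), and the prostaglandin E receptors Ptger3 by -0.66 (SE 0.12) and Ptger2 by -0.33 (SE 0.10). The galanin receptor Galr2 differed by -0.26. Ptger3 read -6.93, -7.00 and -6.72 against -6.23, -6.03 and -6.41, and the wild type arrays at -7.08 and -7.03 lay with P61S/R100E. For the bradykinin receptor Bdkrb2 the difference was 0.15 (95% interval -0.47 to 0.78) with overlapping arrays. Bdkrb1 was not well above background on every array of any group and was not tested. The median of this list moved between -0.35 and -0.03 over the alternative settings.

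**Figure D3:**
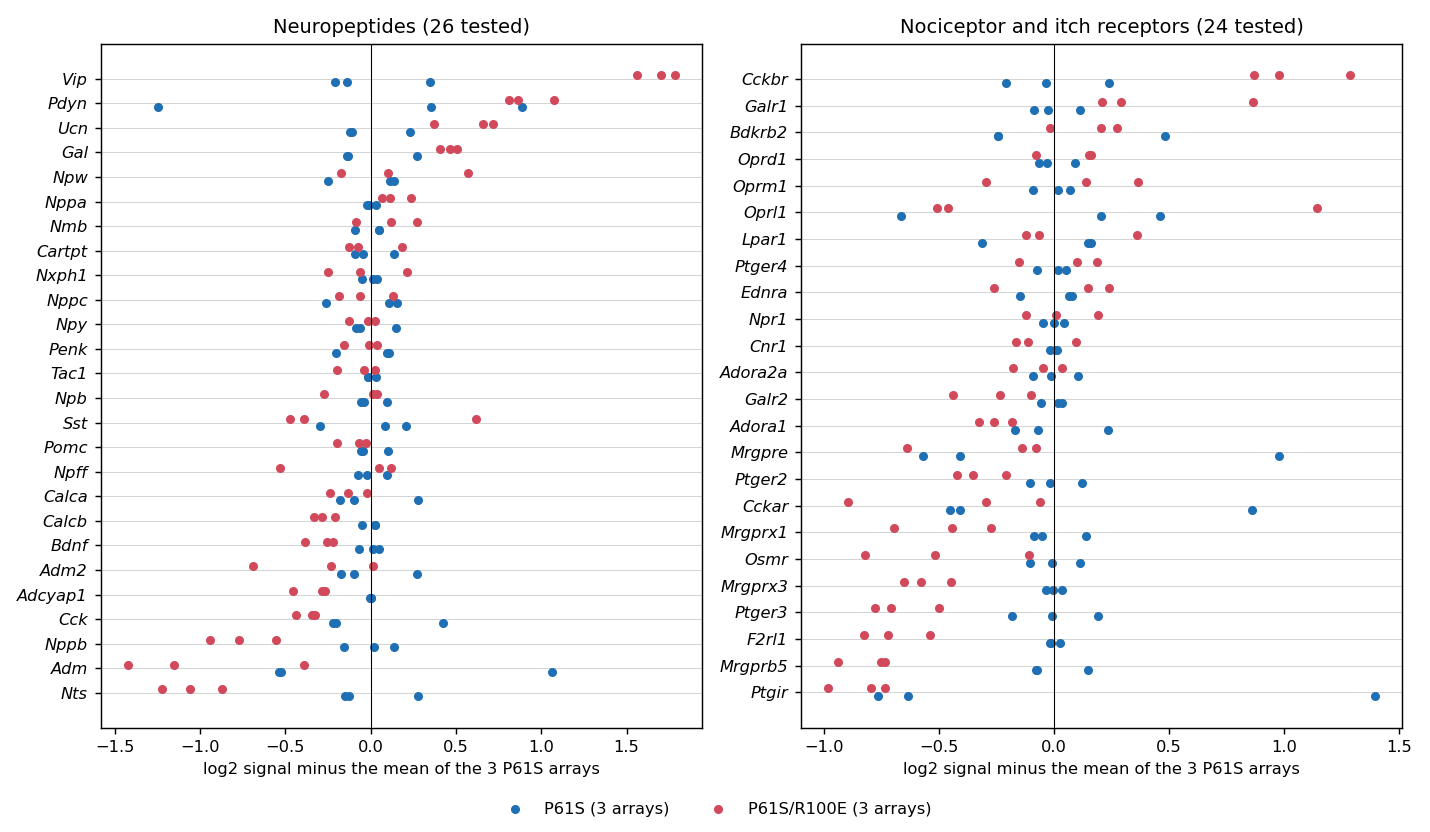
Log2 signal minus the mean of the 3 P61S arrays (horizontal axis) for 26 neuropeptide genes (left) and 24 receptor genes of nociceptors and itch neurons (right), 1 point per array, P61S/R100E in red and P61S in blue, ordered by the mean change. Most rows have red and blue points mixed, with Vip at the top by 1.68 and Nts at the bottom by -1.05 on the left, and 9 receptor rows have all red points to the left of the blue ones.

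Ion channel genes lay on both sides. Of 14 tested TRP and acid-sensing channels, 1 was higher and 3 lower at an unadjusted p under 0.05. That level is reached by 2.37% of all genes upward and 2.30% downward. Trpa1, the channel for irritants such as mustard oil, read -4.97, -4.82 and -5.61 against -4.57, -4.18 and -4.52, a difference of -0.71 (SE 0.25). Trpv1, the capsaicin receptor, read 0.27, 0.46 and 0.29 against 0.56, 0.67 and 0.59, a difference of -0.27 (SE 0.10), with -0.34 on a second probe. Both were lower on all 3 P61S/R100E arrays than on any P61S array. Trpm3, a heat-gated channel, differed by -0.29 (SE 0.09), with -0.20 on a second probe, and the proton-gated channel Asic2 by 0.52 (SE 0.15). The ATP-gated channel gene P2rx2 read -3.12, -2.94 and -2.90 against -3.56, -3.41 and -3.61, a difference of 0.54 (SE 0.10), with 0.56 on a second probe. P2rx3, its partner in nociceptors, differed by -0.08 (95% interval -0.40 to 0.24).

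Among 13 sodium channel genes, Scn4b, a beta subunit, was higher by 0.49 (SE 0.11) and Scn10a, the Nav1.8 channel of nociceptors, lower by -0.21 (SE 0.08), at 2.83, 2.99 and 2.91 against 3.12, 3.15 and 3.09. Scn9a and Scn11a, which encode Nav1.7 and Nav1.9, differed by -0.07 (95% interval -0.37 to 0.23) and -0.10 (-0.30 to 0.11). Of 34 potassium channel genes 2 were higher and 4 lower at that level, beside 2.37% and 2.30% of all genes. Besides Kcnq3, the higher one was Kcna1, a Kv1 subunit, by 0.60 (SE 0.20). The lower ones were the two-pore channels Kcnk4 by -0.49 (SE 0.18) and Kcnk18 by -0.36 (SE 0.14), the sodium-activated channel Kcnt1 by -0.35 (SE 0.15) and the A-type channel Kcnd1 by -0.28 (SE 0.08). The calcium channel subunit Cacna2d1, the gabapentin target, differed by 0.34 (SE 0.13) and was the only 1 of 14 calcium channel genes at that level.

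Genes of the ERK pathway's early response and feedback gave 0 higher and 6 lower of 33 tested at an unadjusted p under 0.05, where 2.37% and 2.30% of all genes stand, with a median of -0.06. Dusp5, a phosphatase that inactivates ERK, read -1.79, -1.54 and -1.77 against -1.26, -0.91 and -1.23, a difference of -0.57 (SE 0.13). Spry4, another feedback inhibitor, read -0.61, -0.57 and -0.77 against -0.30, -0.33 and -0.31, a difference of -0.33 (SE 0.08), with -0.15 on a second probe. In both genes the groups were apart on every array. The transcription factor genes Etv4 and Fosl1 differed by -0.81 (SE 0.26) and -0.26 (SE 0.08). Egr4 differed by -0.998 (SE 0.33) at a signal near background and Ier3 by -0.22; these 2, with Ptger2 and Galr2 above, are outside the rule for named genes and were chosen after their values were seen. In all, 13 of the 33 members were positive. Among well known members, Dusp6 differed by 0.04 (SE 0.13), Fos by 0.08 (SE 0.11) and Jun by 0.07 (SE 0.24). Over the alternative settings 1 to 6 of the 33 members were at that level, and the median ran from -0.176 to -0.00329. Of 23 trophic factor and receptor genes only the CNTF receptor gene Cntfr was at that level, with -0.24 (SE 0.09). That list does not hold the neurotrophin gene Bdnf, described above with the peptides, which was also at that level with -0.29 (SE 0.08). Ngfr, the p75 receptor, read 3.69, 3.64 and 3.81 against 3.61, 3.64 and 3.65, a difference of 0.08 (95% interval -0.13 to 0.29).

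The axon injury list had 6 members higher and 5 lower of 33 at an unadjusted p under 0.05, beside 2.37% and 2.30% of all genes, with a median of 0.07. Members of this list, as of the others, were chosen with earlier results of these data known. Its counts beside the share of all genes are therefore a description and no test. Over the alternative settings 7 to 13 members were at that level. The higher ones were Il24, Crisp3, Cacna2d1, the tubulin gene Tubb3, the small heat-shock protein gene Hspb1 and the stress transcription factor Atf3. Tubb3 read 4.30, 4.24 and 4.24 against 3.92, 3.97 and 3.85, a difference of 0.35 (SE 0.08). Hspb1 differed by 0.27 (SE 0.09) and Atf3 by 0.21 (SE 0.08). The lower ones included 3 Reg genes, which encode secreted lectins: Reg3b, Reg3a by -0.48 (SE 0.08) and Reg1a by -0.63 (SE 0.11). Reg3a read 0.62, 0.47 and 0.52 against 1.01, 0.97 and 1.06. All 3 Reg genes separated the groups. Related genes can share probe sequence, so their differences may not be separate measurements. Arg1, the arginase gene, and the cytokine gene Il6 differed by -0.32 and -0.30.

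Of 32 inflammatory mediators 3 were higher and 4 lower at that level, beside 2.37% and 2.30% of all genes. The median of the list was 0.04. Il24 was followed by the cytokine gene Il1a with 0.34 (SE 0.10), whose second, dimmer probe gave -0.04, and the chemokine gene Cxcl12 with 0.28 (SE 0.10), whose second probe gave 0.15 with overlapping arrays. Il6, the chemokine gene Ccl20, the lipoxygenase gene Alox5 and the prostaglandin E synthase gene Ptges differed by -0.26 to -0.30. Oas2 was the only 1 of 27 interferon-induced genes at that level. Isg15, an abundant member, differed by -0.14 (SE 0.13), and the list's median of -0.10 ran from -0.16 to 0.11 over the settings.

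Of 22 retinoid genes tested, Lrat among them, 3 were higher and 1 lower at that level. For this and the next lists, 2.37% of all genes reach it upward and 2.30% downward. The higher retinoid genes included Crabp2, the retinoic acid-binding protein, by 0.26 (SE 0.10), and Bco1, the enzyme that splits beta-carotene, by 0.49 (SE 0.20). The median of the list was 0.03. Crabp2 read 4.232, 4.087 and 4.415 with P61S/R100E against 4.019, 3.956 and 3.995 with P61S, without overlap, while the Bco1 arrays overlapped. Of 24 calcium buffers and calmodulin kinases 0 were higher and 3 lower, Calb2, Camk4 and the calbindin gene Calb1 (-0.40, SE 0.16), and the median was -0.11. Among 9 annexins Anxa3 was higher and Anxa8 lower by -0.56 (SE 0.10). Pde6b was the only 1 of 20 cyclic nucleotide phosphodiesterases at that level.

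Of 18 claudins and junction genes 3 were higher and 1 lower at an unadjusted p under 0.05, beside 2.37% and 2.30% of all genes. In all, 7 of the 18 were positive, and the median of the list was -0.09. Cldn7 read -6.79, -6.83 and -6.47 against -7.83, -7.30 and -7.89, a difference of 0.98 (SE 0.21), and Cldn4 read -2.69, -2.37 and -2.63 against -3.60, -2.96 and -3.65, a difference of 0.84 (SE 0.20). In both, P61S replicate 2 was the P61S array nearest to P61S/R100E. Cldn10 differed by 0.33 (SE 0.12), while Cldn3 was the lower member. Cdh1, the epithelial cadherin, differed by -0.23 (SE 0.12) with overlapping arrays. The keratin genes Krt14 and Krt19 and the junction genes Cldn4 and Cldn7 are known from epithelia. Another keratin gene, Krt18, outside the rule for named genes, differed by -1.14 (SE 0.82) with overlapping arrays. No list of epithelial markers was examined, so the part of such cells in these differences was not tested.

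Cholesterol synthesis genes were mostly on the positive side, 20 of 24 (5645 of 12148 over all genes), with a median of 0.10. At an unadjusted p under 0.05, 3 were higher and 0 lower, beside 2.37% and 2.30% of all genes. Hmgcs1, an early enzyme of the pathway, read 4.55, 4.39 and 4.39 against 4.07, 4.27 and 4.09, a difference of 0.30 (SE 0.10). The sterol enzyme gene Hsd17b7 differed by 0.26 (SE 0.07). The list's median stayed between 0.07 and 0.13 over the settings. In the list of glycolysis and hypoxia genes 2 of 32 were positive, beside 5645 of 12148 over all genes, and the median was -0.13, with 1 member, the pyruvate dehydrogenase kinase gene Pdk1, at that level by -0.42 (SE 0.16). Glycolytic enzymes had bright signals and small differences, Ldha of -0.08 (SE 0.11) and Pgk1 of -0.01 (SE 0.11). Adm, the hypoxia-responsive adrenomedullin gene, differed by -0.99 with an SE of 0.48, and its P61S arrays had an SD of 0.92 (n = 3).

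In the other lists 0 to 2 members were at an unadjusted p under 0.05, a level that 4.68% of all genes reach. Of 31 apoptosis genes the proapoptotic Hrk (0.44, SE 0.08) was higher and Bik (-0.37, SE 0.10) lower, and the second, dimmer probe of Hrk gave -0.02. The chaperone gene Hyou1 (0.23) was the only 1 of 23 endoplasmic reticulum stress genes at that level, Ccnb2, a mitotic cyclin (-0.26), the only 1 of 24 cell cycle genes and Mmp16 the only 1 of 24 matrix proteases. Of 14 peptide processing genes the protease gene Furin (0.19) was higher and the granin gene Scg3 (-0.29) lower. Among 26 synaptic vesicle genes and 30 respiratory chain genes 0 reached that level in the limma fit, and their medians were -0.05 and -0.01.

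**Figure D4:**
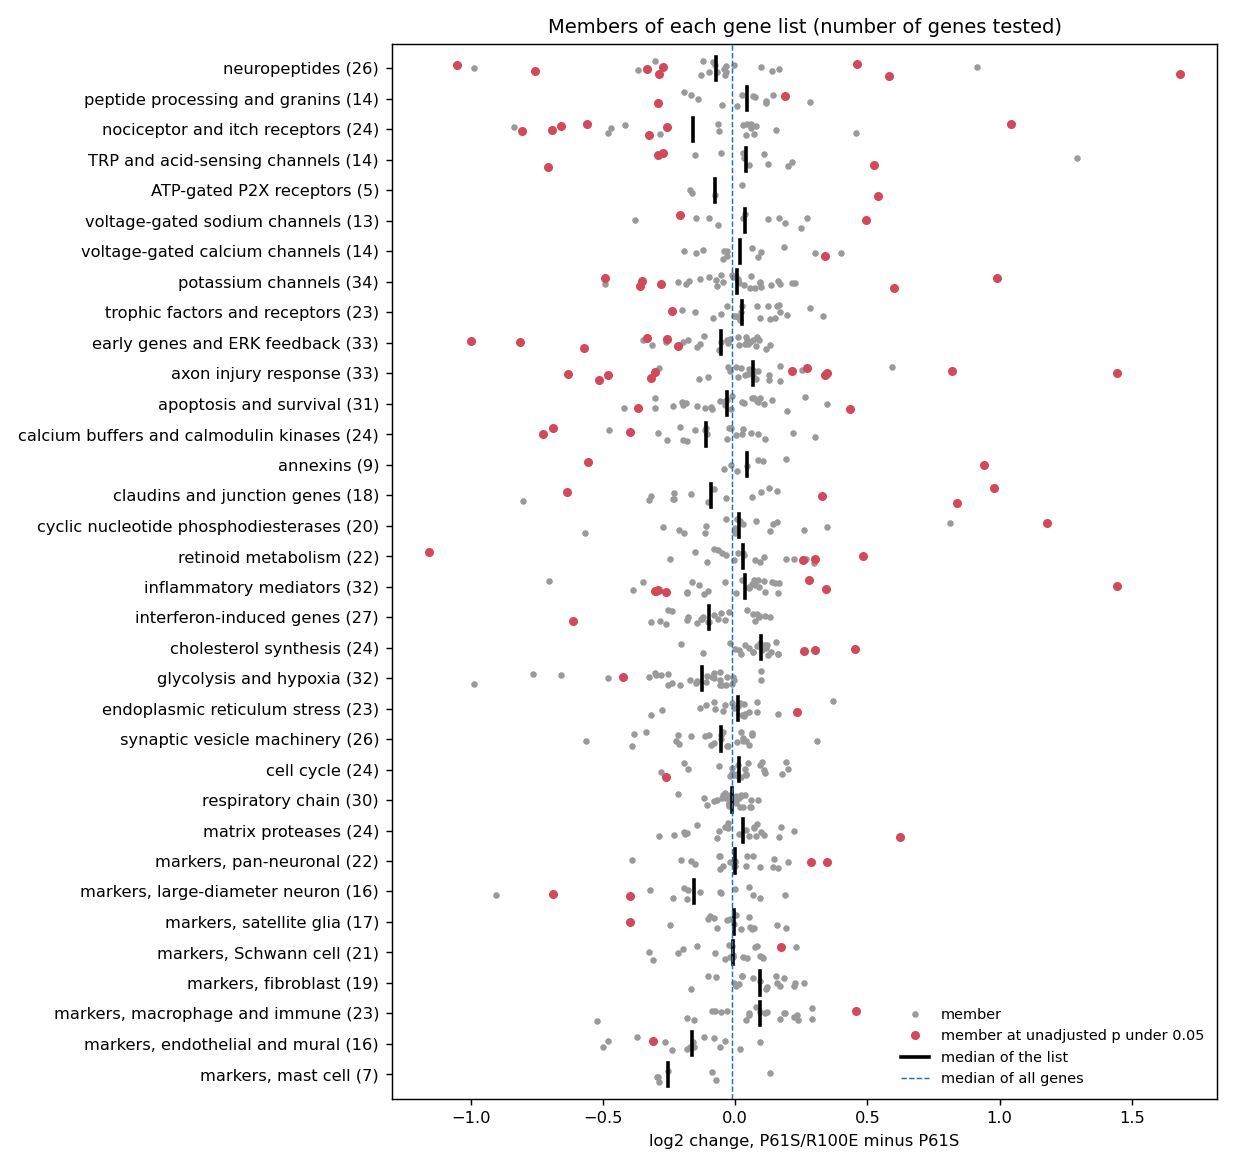
Log2 change of P61S/R100E minus P61S (horizontal axis) for the tested members of 34 gene lists, with the number of tested genes in brackets, 1 point per gene, red at an unadjusted p under 0.05, a black bar at the median of the list and a dashed line at the median of all genes, -0.01. Most medians lie within 0.10 of the dashed line, and the 6 red points of the early gene list all lie to the left of it.

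Markers of cell types were read as whole lists, with the level summed over members as a linear ratio to the array's 75th percentile. Of 22 pan-neuronal genes 2 (Tubb3 and Pou4f3) were higher and 0 lower at an unadjusted p under 0.05, beside 2.37% and 2.30% of all genes. The sum ran from 230.4 to 245.3 with P61S/R100E and from 216.2 to 246.9 with P61S. Of 16 markers of large-diameter neurons, which carry touch and position sense, Calb2 and Calb1 were lower, and the sums were 17.98 to 19.56 against 18.91 to 20.21. The median of these 16 was -0.16 and 5 were positive, beside -0.01 and 5645 of 12148 over all genes. For 17 satellite glia markers 0 were higher and 1 lower at that level, with sums of 113.1 to 124.1 against 117.7 to 123.3. For 21 Schwann cell markers 1, Cdh2, was higher by 0.17, with sums of 108.8 to 121.1 against 105.6 to 112.6. The ranges of these 4 sums overlapped between the groups. The medians of the pan-neuronal, satellite glia and Schwann cell lists were 0.0002, -0.004 and -0.010.

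Fibroblast markers summed to 181.5 to 213.7 with P61S/R100E and 170.7 to 187.2 with P61S, with 0 of 19 at that level in limma, 3 lying wholly above (7.21% of all genes) and a median of 0.09. Macrophage and immune markers summed to 16.68 to 19.90 against 16.47 to 17.94, with 1 of 23 higher, the macrophage receptor gene Trem2, by 0.46 (SE 0.14). Of these 23, 4 lay wholly above and 0 wholly below, beside 7.21% and 8.48% of all genes, and the median was 0.09. The macrophage genes Cd163 and Mrc1, the T cell gene Cd3e and RT1-Da were not well above background on every array of any group and were not tested. Endothelial and mural markers summed to 1.95 to 2.17 against 2.11 to 2.40, with 1 of 16 lower, Kcnj8 (-0.31). Of these 16, 2 were positive, beside 5645 of 12148 over all genes. Their median was -0.16 and ran from -0.31 to -0.05 over the settings. Cldn5, Tek and Tie1 were not well above background on every array of any group and were not tested. Mast cell markers summed to 0.18 to 0.22 against 0.17 to 0.27. Of 7 tested, 1 was positive, and their median of -0.25 ran from -1.23 to 0.19 over the settings. Cma1, Fcer1a and Ms4a2 fell short of the same background rule and were not tested. The part of these cells in the differences above was not tested.

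Most genes with a large difference had overlapping arrays. Of the 12148 genes 45 (0.370%) differed by more than 2-fold, 18 higher (0.148%) and 27 lower (0.222%). In 30 of the 45 the arrays overlapped, and 26 of these 30 were in the dimmest of the 4 signal groups. In the other 15, 9 higher (0.0741%) and 6 lower (0.0494%), the groups did not overlap, and 8 of these were among the 30 genes described first. The other 7 were chosen for mention after their values were seen. Krt19, a keratin of simple epithelia, read -3.87, -2.65 and -3.46 with P61S/R100E against -5.20, -4.33 and -5.30 with P61S, and Hpd, an enzyme of tyrosine breakdown, read -3.69, -3.24 and -3.50 against -4.88, -4.22 and -4.87. Differences of 1.61 (SE 0.36) and 1.18 (SE 0.20) followed. In Nav2, Eras and Vxn a single P61S array stood high, as Nav2 shows with -4.28, 0.01 and -4.19. Or2t47 and Or1a1, olfactory receptor genes, lay near background. Or2t47 was well above it on 3 P61S arrays and 1 P61S/R100E array, and Or1a1 on 1 P61S array and 3 P61S/R100E arrays.

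A probe well above background on all 3 arrays of a group and none of the other gives only a bound. That held for Sim2, a transcription factor gene, on the P61S side. With dim arrays raised to the lowest signal read well above background, its mean was 1.53-fold higher with P61S than with P61S/R100E. This bound concerns the group means and leaves out their sampling error. The limma difference was -0.88 (SE 0.30, 95% interval -1.60 to -0.16, adjusted p = 0.9995). Its arrays read -8.09, -7.53 and -7.04 with P61S and -8.39, -8.23 and -8.67 with P61S/R100E.

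Some dim genes had smaller differences after normexp background correction with quantile normalization. Elf5 was then 0.34, Stat4 0.38, Stfa2l1 -0.35, Oas2 -0.26 and Mrgprb5 -0.41. Among the other genes, Cldn7 was 0.34, Cldn10 0.18, Ptger3 -0.22, Asic2 0.24, Bco1 0.25, Nppb -0.47, Etv4 -0.53, Trpa1 -0.46, Alox5 -0.12 and Sim2 -0.13. A single array moved the difference by more than 1.5 times in a few: Pdk1 was -0.27 without P61S replicate 2 and Bco1 0.31 without P61S replicate 3. Cacna2d1 was 0.20 without P61S/R100E replicate 2. Without P61S/R100E replicate 3 Trpa1 was -0.47, Calb1 -0.25 and Crabp2 0.17.

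The position of an array on the slide was not balanced between the groups. P61S arrays lay in columns 1, 2 and 1 and P61S/R100E arrays in columns 3, 2 and 3, so only replicate 2 of each shared a column. With the slide column as a covariate the difference equals that between those 2 arrays, and it rests on 1 array of each group. limma then called 0 probes, and 104 were higher and 1106 lower at an unadjusted p under 0.05, with a median difference over all probes of -0.11 in place of -0.02. The median standard error of a gene rose from 0.12 to 0.22. The 30 genes kept their direction, which was fixed in advance, since they were selected for arrays that do not overlap. Their differences were 0.65 (Stat4) to 1.33 (Reg3b) times those without the covariate, with a median of 0.94. Vip became 1.44, Lrat -1.24, Il24 1.10 and Nts -1.15. Gal became 0.14 in place of 0.46, Hmgcs1 0.12 in place of 0.30 and Cldn7 0.47 in place of 0.98. Smaller by more than 1.5 times were also Cxcl12 (0.09), Il1a (0.18), Atf3 (0.14), Trem2 (0.28), Cldn10 (0.15), Crabp2 (0.13), Bco1 (0.26) and Scg3 (0.01), and larger by more than 1.5 times were Cacna2d1 (0.55), Ccl20 (-0.54) and Arg1 (-0.50). Slide column and group cannot otherwise be told apart.

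**Figure D5:**
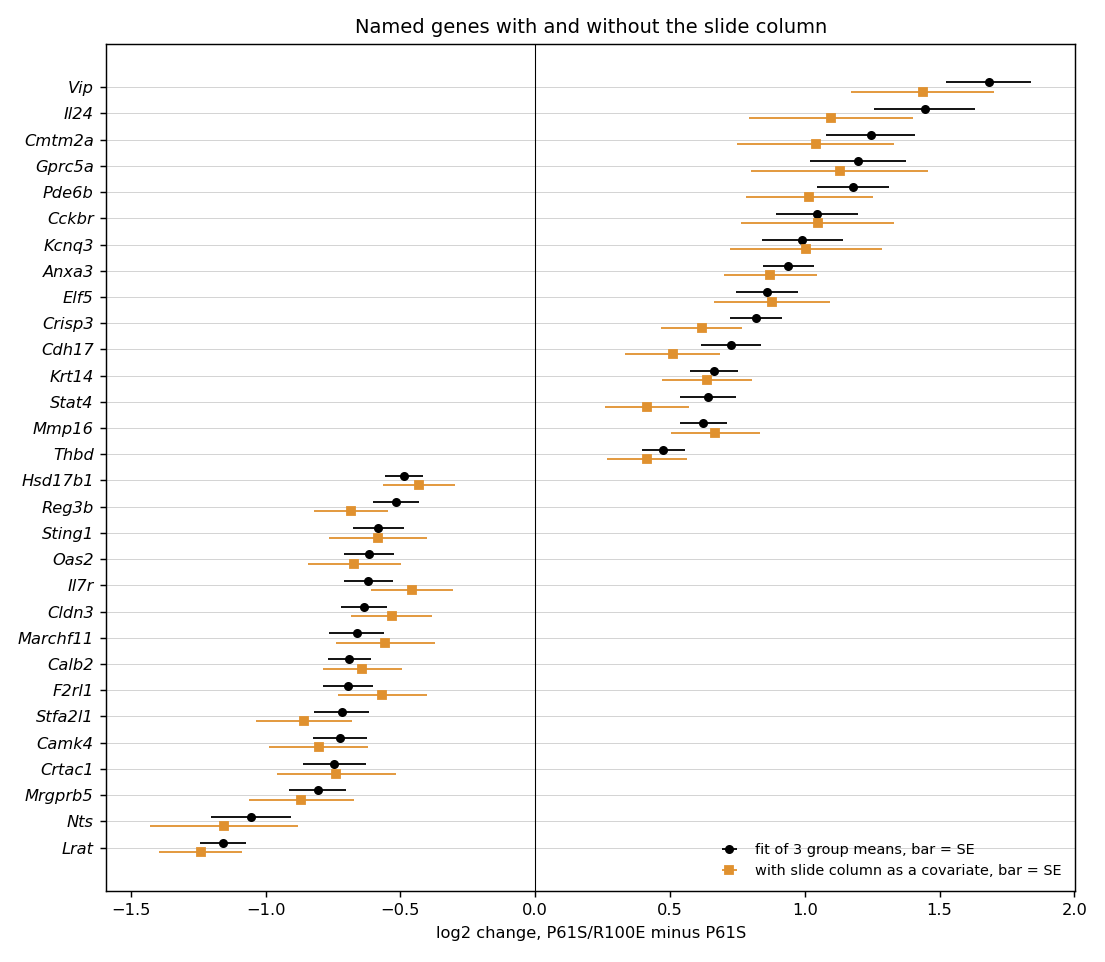
Log2 change of P61S/R100E minus P61S (horizontal axis) for the 30 genes with the smallest p, as the fit of 3 group means gave it (black circles) and with the slide column as a covariate (orange squares), bars showing the standard error. Each orange square lies on the same side of 0 as its black circle, which the selection of genes without overlap fixed in advance. Vip lies at 1.68 and 1.44 and Lrat at -1.16 and -1.24.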

How the data were processed

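The 8 one-colour arrays of 1 slide were scanned, and the 3 P61S/R100E and 3 P61S arrays were compared. Per the file headers, the deposited scanner files hold spot intensity, background-subtracted and detrended by Feature Extraction 10.7.3.1 (protocol GE1_107_Sep09, array design 028279, genome build rn4). Per the labels' protocols, samples were kept only at an RNA integrity number of 8.0 or more. The authors' deposited log2 matrix (22018 probes, array medians 9.82 to 10.33, correlations of 0.999 to 0.9999 with the scanner values) served as an alternative.

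Of 62976 spots 4259 controls were left out, spots marked as outliers were dropped where another spot of the probe remained, and log2 signals were averaged over spots to 30367 probes, minus each array's log2 75th percentile. Gene symbols came from matching each probe's accession to the RefSeq genes (17998 probes, 15154 symbols), and 12369 probes had no match. Probes that all arrays of some group read well above background were tested with limma 3.58.1 (R 4.3.3) in 1 fit of 8 arrays with 3 group means, the degrees of freedom being 5 (residual) and 1.93 (prior), and Benjamini-Hochberg adjustment over all tested probes at 0.05. The script was tested on simulated data. The number of arrays limits the precision.

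Named genes were any past that threshold, per direction the 15 of smallest p among genes whose arrays do not overlap, up to 4 members of each list per direction at an unadjusted p under 0.05, a fixed set of genes, and those with a bound. The brightest probe stood for a gene. Members and lists were chosen with earlier results of these data known, and some genes are not reported here. Alternatives were background correction by normexp (offset 50, on the median signal, since no mean signal was used here), normalization, filters, blocks, covariates and each array left out. Tables were made in pandas 2.3.3 and numpy 2.4.6 under Python 3.11.15, and plots with matplotlib 3.10.9.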

Additional observations from a re-analysis of the deposited data

How the results depend on the processing

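The 30 genes with the smallest p kept their direction under all 20 alternatives (600 values, 0 of them reversed). Their selection for arrays that do not overlap fixed the direction wherever the array values themselves stayed the same. That holds with an array left out, other filters, other variance settings or the slide column, so those values support nothing. Of 1974 values for 99 named genes 6 were reversed, in 5 genes. With the slide column as a covariate Scg3 was 0.0149, Bdkrb2 -0.277 and Scn9a 0.0658. With an array left out, Calca ran from -0.22 to 0.00906 (highest without P61S replicate 2), P2rx3 from -0.16 to 0.0394 (highest without P61S replicate 2) and Scn9a from -0.15 to 0.0693 (highest without P61S/R100E replicate 1). The number of probes called by limma was 0 at first. It was 1 (Lrat) with the deposited values, 1 (Lrat) with a filter on all arrays and 1 at an adjusted p under 0.10. It was 6 with a variance trend and robust hyperparameters (Lrat, Calb2, Vip, Crisp3, Anxa3 and an unnamed probe). Leaving out each array gave 0 to 3 calls, with 3 without P61S replicate 2 (Il24, Vip and an unnamed probe) and 0 without any other array. The 946 probes at an unadjusted p under 0.05 became 601 to 1483 when an array was left out, with 601 without P61S replicate 1 (192 higher, 409 lower) and 1483 without either wild type replicate, the same as in a fit of only the 2 groups (1483). Without P61S replicate 2 there were 641 higher and 281 lower. The share that was higher, 48.3% at first, was 56.5% with normexp and quantile normalization, 59.7% with quantile normalization, 37.2% with no filter, 39.9% in the fit of only the 2 groups and 8.6% with the slide column.

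Replicate numbers are shared by the groups, but same-numbered arrays did not deviate together (correlations of 0.05, -0.02 and 0.01), and not every array correlated best with its own number. With the replicate block limma called 0 probes and 851 had an unadjusted p under 0.05 (364 higher, 487 lower). Signal over background limits dim probes: the median standard error in the dimmest of the 4 signal groups was 0.22.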
